A study of Homo sapiens with 24 samples.

Results

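The genes described here encode the proteins of the cytosolic ribosome. They were taken by name, as every entry of the count files whose symbol is RPL or RPS followed by a number (with an A, X or L ending where the symbol has one), RPLP0, RPLP1 or RPLP2, or RPSA, and pseudogene symbols were left out. The rule found 84 members among 58735 entries, 52 of the large and 32 of the small subunit. It takes in 7 sequence paralogs that carry an L ending (RPL3L, RPL7L1, RPL10L, RPL22L1, RPL26L1, RPL39L and RPS27L). It misses ribosomal protein genes with other symbols, and a list of 4 of these, FAU, RPL36AL and RACK1 among them, is followed below. RPL10L, a testis paralog of RPL10, had no count in any library, which allows a level of up to 0.0579 to 0.0896 CPM (counts scaled to the size of the library; 3 counts per library, counting error only), and the other 83 members passed the filter on low counts and were tested in every fit.

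Messenger RNA was sequenced from 3 established human breast cancer cell lines of the triple-negative type, HCC1395, HCC38 and HCC1937. HCC1395 was grown in DMSO, with the EZH2 inhibitor tazemetostat (5 uM, here EZH2i), with the AKT inhibitor ipatasertib (5 uM, here AKTi) or with both. HCC38 and HCC1937 were grown in DMSO or with both inhibitors at the same doses. Each of the 8 groups had 3 libraries, which carry A, B or C as their replicate letter. The labels' treatment schedule names another line, so the length of treatment in these lines is not clear from them, and no allele or transgene is given for any group. Nothing in the labels says that the letters mark separate cultures, and p-values then measure only the spread between these libraries, which may be technical.

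Most ribosomal proteins assemble with ribosomal RNA in the nucleolus, and most are needed in equal numbers. Ribosomal protein genes are transcribed at high and similar rates in growing cells. Nearly all of their mRNAs begin with a 5′ terminal oligopyrimidine tract (5′ TOP), a C followed by a run of C and T bases. Through this tract their translation, and by way of the binding protein LARP1 also their stability, depends on mTORC1, a kinase complex that acts downstream of AKT. EZH2 is the enzyme of the Polycomb complex that methylates histone H3 to silence genes.

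The sequence around the start site shows this tract, and 10 windows are printed for the members that the results below turn on, among them both genes of 3 pairs of paralog and partner. Each window holds 15 bases before and 15 from the RefSeq start onward, read 5′ to 3′ from the GRCh38.p14 promoter table, and capitals mark runs of at least 7 bases that are all C or T.
RPS26: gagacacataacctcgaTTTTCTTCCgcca
RPL26: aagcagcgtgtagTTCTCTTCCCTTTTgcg
RPL26L1: agtcttccaggggtcggcgaacgaaacgcg
RPS27: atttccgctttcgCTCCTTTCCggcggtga
RPS27L: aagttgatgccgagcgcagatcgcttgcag
RPL22: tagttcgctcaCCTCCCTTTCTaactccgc
RPL22L1: cgcggccgtagCTTCCTCTCTgctctcgcg
RPL3: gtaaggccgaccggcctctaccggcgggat
RPL13A: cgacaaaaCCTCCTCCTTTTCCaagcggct
RPS9: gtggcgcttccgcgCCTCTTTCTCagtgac
The windows lie at chr12:56041903-56041932 (plus strand) for RPS26, chr17:8383179-8383208 (minus strand) for RPL26, chr5:172958714-172958743 (plus strand) for RPL26L1, chr1:153990747-153990776 (plus strand) for RPS27 and chr15:63157463-63157492 (minus strand) for RPS27L. Those of the other genes are chr1:6199581-6199610 (minus strand) for RPL22, chr3:170870181-170870210 (minus strand) for RPL22L1, chr22:39319609-39319638 (minus strand) for RPL3, chr19:49487593-49487622 (plus strand) for RPL13A and chr19:54200843-54200872 (plus strand) for RPS9. Each spans the boundary between promoter and first exon. The windows of RPL26L1 and RPS27L hold no such run, whereas those of their partners RPL26 and RPS27 do, and RPL3, a standard member, also has none here. RPL22L1, in contrast, carries a run of 10 bases at its start. In RPS26 the run begins after the annotated first base, which is a G.

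Of the 84 members, 67 had an entry in the table. A run of at least 7 C or T within 20 bases of the start was present in 56 of the 67 (83.6%), against 31.2% of the 35116 promoters of the table. The run included the first transcribed base in 43 (64.2%), against 5.9% of all promoters. Among the 5 paralogs with an entry only RPL22L1 had a run near its start, and among the other matched members 55 of 62 had one. In the whole window of 300 bases and on both strands, the letters CCGGAAG, the core of an ETS and GABP site, were found in 34.3% of matched members and 10.3% of promoters, and GGGCGG, the SP1 core, in 53.7% and 45%. ATGGCGGC, a YY1 motif, was found in 7.46% and 3.0%, and TATAAA in 10.4% and 11.5%. Since fewer than 80% of the members had an entry, a comparison of responses by start sequence would be void and was not made. Among the members without an entry are RPL23, RPL23A, RPL30, RPL37, RPL39L, RPL3L, RPL5, RPL7, RPL8, RPS15A, RPS2 and RPS20.

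Libraries held 33469927 to 51815656 counts in all and 1580510 to 5007547 counts on the members. Sums and levels of markers here and below are CPM of the library total unless stated. Of the epithelial markers EPCAM, CDH1, KRT5, KRT8, KRT14, KRT17, KRT18 and KRT19, the summed level ran from 447 to 745 CPM in the HCC1395 groups and from 2680.0 to 6747 CPM in those of the other lines. On the scale of all 24 libraries, the mean in HCC1395 DMSO was 431 CPM for KRT14, 32.5 for KRT8, 29.1 for KRT18 and 6.36 for KRT5. EPCAM (1.755), CDH1 (0.347), KRT17 (0.884) and KRT19 (0.8745) were low there. All 5 immune markers together stayed between 0.497 and 9.41 CPM. PGR, a receptor low in this type of cancer, was at 0 in 17 of 24 libraries, and ERBB2 ran from 42.3 to 242 CPM. The remaining receptor of that list ran from 0 to 21.4 CPM. Of 6 fibroblast markers COL1A2 reached 862 CPM in HCC1395, while COL3A1, DCN and LUM stayed under 1.2 CPM in all lines. The remaining ones of the 6 ran from 11.2 to 96.0 CPM and from 0 to 21.3 CPM over all libraries. Several libraries lay at one end of their group for most members. HCC1395 EZH2i+AKTi B was the highest of its group for 78 of 83 members, HCC38 DMSO B for 79 and HCC1937 EZH2i+AKTi C for 72, while HCC1395 AKTi C, EZH2i C and EZH2i+AKTi C and HCC38 DMSO C were the lowest for 76, 76, 74 and 76. The median member was 0.23 above (log2) the group mean in HCC1395 EZH2i+AKTi B and 0.14 above it in HCC38 DMSO B, and between -0.20 and 0.12 from it in the other libraries. HCC38 EZH2i+AKTi C had 7.77% of its counts on genes of the mitochondrial genome, against 4.76 and 5.19% in the other libraries of its group. The main counts and medians below are given also without the libraries that moved them by over 1.5 times.

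The share of all counts that fell on ribosomal protein genes was higher with the inhibitors than in DMSO in HCC1395 and HCC1937 and lower in HCC38. In HCC1395 it was 6.64, 6.46 and 6.59% in the DMSO libraries A, B and C, 7.18, 7.36 and 6.88% with EZH2i, 7.95, 7.86 and 7.42% with AKTi and 8.31, 9.79 and 7.64% with both. Every treated library of HCC1395 lay above every DMSO library. In HCC38 the share was 5.66, 6.32 and 5.45% in DMSO and 5.45, 5.00 and 4.46% with both inhibitors, and the lowest DMSO and the highest treated library were nearly equal. In HCC1937 it was 5.30, 4.83 and 4.83% in DMSO and 5.47, 5.89 and 6.03% with both, with no overlap. The mean difference from DMSO was 0.578 percentage points with EZH2i, 1.18 with AKTi and 2.02 with both in HCC1395, -0.841 in HCC38 and 0.810 in HCC1937. Without HCC1395 EZH2i+AKTi B the difference with both inhibitors was 1.41 points, and without HCC38 EZH2i+AKTi C that of HCC38 was -0.587. Without HCC1937 EZH2i+AKTi C that of HCC1937 was 0.690. The shares are descriptions with no test. The ratio of large to small subunit counts was 1.72 ± 0.0016 in HCC1395 DMSO and 1.82 ± 0.026 with AKTi. It was 1.46 and 1.55 in HCC38 and 1.92 and 1.97 in HCC1937, without and with both inhibitors. In bulk RNA fewer cells of a type and less RNA per cell cannot be told apart.

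**Figure D1:**
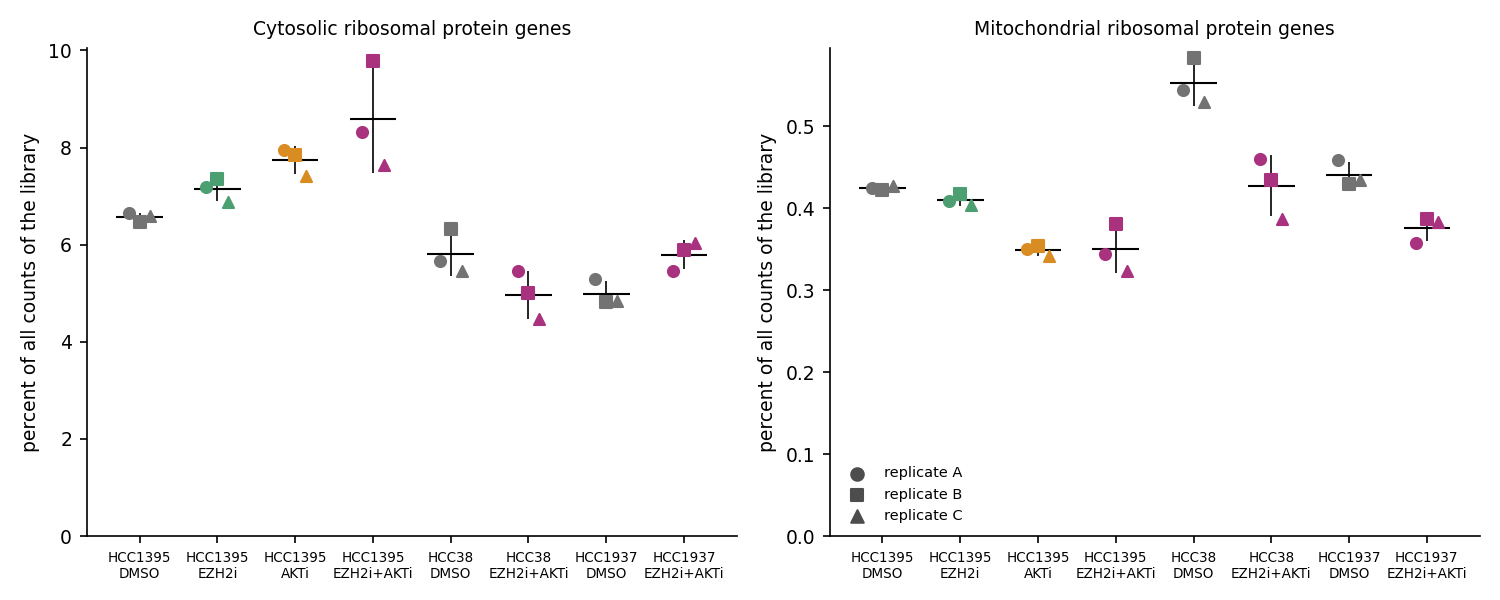
Percent of all counts of each library (y axis, linear, from 0) that fell on the 84 cytosolic (left) and the 78 mitochondrial (right) ribosomal protein genes, by group (x axis); points are libraries, horizontal lines the mean of 3 and vertical lines the SD. The cytosolic share of HCC1395 was above its DMSO range of 6.46 to 6.64% in every treated library, while that of HCC38 was 4.46 to 5.45% with both inhibitors, and the mitochondrial share was lower with both inhibitors in each line.

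The comparison of AKTi with DMSO in HCC1395 asks what blocking AKT does to ribosomal protein mRNA. Here and below a member is called when its Benjamini-Hochberg adjusted p in edgeR's quasi-likelihood test, taken over all genes tested, is under 0.05, and log2 changes carry the standard error of the fit. Of 83 members 39 rose, where 27.1% of all genes tested were called higher, and 6 fell, where 22.6% were called lower. The median change was 0.22, against 0.06 over all genes tested. Of the large subunit 25 of 51 rose and 4 fell, and of the small subunit 14 of 32 rose and 2 fell. The count of members that rose was 25 without DMSO B, 23 without AKTi A and 23 without EZH2i A, which shares the scaling and the estimate of the spread, and the median was 0.15 without EZH2i A. The share of counts on the mitochondrial genome was 3.77 to 3.92% in DMSO, 5.34 to 5.72% with AKTi and 6.14 to 6.30% with both. The 8 epithelial markers summed to 479 to 501, 447 to 469 and 664 to 745 CPM, sums in which single markers moved in opposite directions. With AKTi the mean of KRT14 went from 431 to 327 CPM and that of KRT8 from 32.5 to 95.95 CPM (scale of all 24 libraries). Their part in the changes of the members was not tested.

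RPL22, a large subunit protein that binds RNA on the outer face of the ribosome, had the largest rise. Levels of members here and below are scaled by TMM within the line unless stated. RPL22 stood at 130.3, 128 and 125 CPM in DMSO and 199.6, 207 and 195 CPM with AKTi, a change of 0.65 ± 0.06 (SE, adjusted p = 1.5e-08). The groups lay well apart. An overlapping gene, RNF207, drew 92 to 389 counts against 4544 to 10944 for RPL22. RPL3, which helps to shape the peptidyl transferase centre, went from 1873, 1891 and 1879 CPM to 2809, 2728 and 2614 CPM, a change of 0.53 ± 0.06. RPL13A, known also from translational control in inflammation, changed by 0.50 ± 0.07 and RPL4, whose long loop lines the exit tunnel, by 0.46 ± 0.06. The partners of the 5S ribosomal RNA, RPL5 and RPL11, which can also bind MDM2, changed by 0.48 ± 0.07 (SE, adjusted p = 4.16e-06) and 0.23 ± 0.09 (SE, adjusted p = 0.0426). Of the stalk proteins that recruit elongation factors, RPLP0 (0.20 ± 0.07) and RPLP1 (0.24 ± 0.09) rose, and RPLP2 was at 0.17 ± 0.12 (adjusted p = 0.265). RPS6, the substrate of the S6 kinases, was at 0.22 ± 0.09 (adjusted p = 0.0583), and RPS27A, which is made as a fusion to ubiquitin, rose by 0.18 ± 0.07. The calls of RPL11, RPLP0, RPLP1 and RPS27A were near the threshold, and each was lost with RLE scaling, with DESeq2 and without DMSO B, DMSO C, AKTi A, AKTi B or EZH2i A.

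Among the 6 members that fell with AKTi were RPS26, RPL39L, RPL26L1, RPL17 and RPL7L1. RPS26, a small subunit protein at the mRNA exit channel, fell the most, from 214, 193 and 204 CPM to 126, 123 and 117 CPM, a change of -0.74 ± 0.10 (SE, adjusted p = 4.82e-05). RPL39L, a paralog of the tunnel protein RPL39, went from 35.4, 38.0 and 36.0 CPM to 24.6, 26.6 and 24.1 CPM (-0.54 ± 0.10, adjusted p = 0.000353). In both genes every AKTi library lay below every DMSO library. RPL7L1, which in spite of its name works in the assembly of the large subunit, changed by -0.20 ± 0.05, RPL26L1 by -0.40 ± 0.09 and RPL17 by -0.36 ± 0.10, the last on counts that the annotation makes uncertain.

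EZH2i alone moved few members. By edgeR's quasi-likelihood test 3 rose (RPS20, RPS15A and RPL13A), with 18.8% of all genes called higher, and RPL7L1 fell, with 14.9% called lower. The median was 0.08, against 0.02 over all genes, and 70 of 83 members were above 0 (58 with RLE scaling). It was 0.02 without EZH2i A, with 55 above 0, and 0.03 without EZH2i+AKTi B, with 52 above 0. RPS20, at the head of the small subunit, was 784, 749 and 771 CPM in DMSO and 943, 952 and 848 CPM with EZH2i (0.25 ± 0.09, adjusted p = 0.0338), and these groups did not overlap. RPS15A changed by 0.21 ± 0.07, RPL13A by 0.19 ± 0.07 and RPL7L1 by -0.14 ± 0.05. RPS26 was at 0.01 ± 0.10 (adjusted p = 0.939), with 208, 208 and 201 CPM under EZH2i. The calls depended on the fit. The number that rose was 1 without DMSO A or DMSO C, 0 without DMSO B or EZH2i A, 6 without EZH2i+AKTi B, 11 without EZH2i+AKTi C and 25 when only the EZH2i and DMSO libraries entered the fit. The number that fell was 2 without DMSO A, 0 without DMSO B and 2 without EZH2i+AKTi B. None of the 3 rises was called with RLE scaling, and that of RPS15A was 0.08 without EZH2i A. The fall of RPL7L1 was not called with library totals only. The epithelial markers summed to 479 to 501 CPM in DMSO and 687 to 712 CPM with EZH2i, and the mitochondrial genome held 3.77 to 3.92% and 4.49 to 5.19% of counts. Their part in the changes was not tested.

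With both inhibitors 58 members rose in HCC1395 and 6 fell, against 32.5% and 27.4% of all genes tested. The median was 0.34 (0.07 over all genes), and it was 0.18 without EZH2i+AKTi B, when 47 rose and 7 fell. RPL22 (203, 218 and 193 CPM) changed by 0.68 ± 0.06 (SE, adjusted p = 4.34e-09) and by 0.61 without that library. RPS9, which binds the body of the small subunit, went from 826, 912 and 899 CPM to 1396, 1638 and 1194 CPM, a change of 0.68 ± 0.09. RPL13A (0.63 ± 0.07), RPL13 (0.58 ± 0.07), RPL3 (0.57 ± 0.06) and RPS20 (0.56 ± 0.09) were the next. All 3 stalk genes rose, RPLP0 by 0.20 ± 0.07, RPLP1 by 0.36 ± 0.09 and RPLP2 by 0.39 ± 0.12, as did RPL5 (0.51 ± 0.07) and RPL11 (0.34 ± 0.09). Without EZH2i+AKTi B the change of RPLP1 was 0.19, that of RPLP2 0.20 and that of RPL11 0.18, all still called, and that of RPLP0 was 0.07 and not called. Its call was also lost without DMSO B or EZH2i A and with only the groups compared, and that of RPLP2 with no filter and without DMSO A. RPS19, a gene mutated in Diamond-Blackfan anaemia, rose by 0.50 ± 0.09, RPS6 by 0.28 ± 0.09, RPSA, also known as the laminin receptor, by 0.33 ± 0.08 and RPS4X by 0.43 ± 0.07. Without EZH2i+AKTi B these were 0.33 for RPS19, 0.18 for RPSA and 0.28 for RPS4X, all called, and 0.12 for RPS6 (adjusted p = 0.0597), whose call was also lost without DMSO B. RPL41, the shortest of the proteins, was at 0.11 ± 0.09 (adjusted p = 0.287).

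The members that fell with both inhibitors were those that fell with AKTi. RPS26 stood at 118, 147 and 100.1 CPM, all below its DMSO range, and changed by -0.74 ± 0.10 (SE, adjusted p = 3.23e-05). RPL26L1 changed by -0.43 ± 0.09, RPL17 by -0.35 ± 0.10, RPL7L1 by -0.35 ± 0.05 and RPL39L by -0.29 ± 0.10 (adjusted p = 0.0194). RPL39L was 30.3, 34.8 and 23.7 CPM, and its change was -0.45 without EZH2i+AKTi B and -0.17 without EZH2i+AKTi C, and its call was lost without DMSO B.

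The interaction of the inhibitors, the log2 change with both minus those with either one, was called for no member. By edgeR's quasi-likelihood test 0 were higher and 0 lower (against 0.526% and 1.06% of all genes), with 0 at an unadjusted p under 0.05 and 0 by DESeq2. Its median was 0.02 over the members and -0.04 over all genes, and the median ran from -0.03 to 0.11 with 1 library left out. Of the members 1 was called higher without EZH2i+AKTi B and 1 without EZH2i+AKTi C. The interaction of RPL22 was -0.12 ± 0.09 and that of RPS26 -0.02 ± 0.14.

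**Figure D2:**
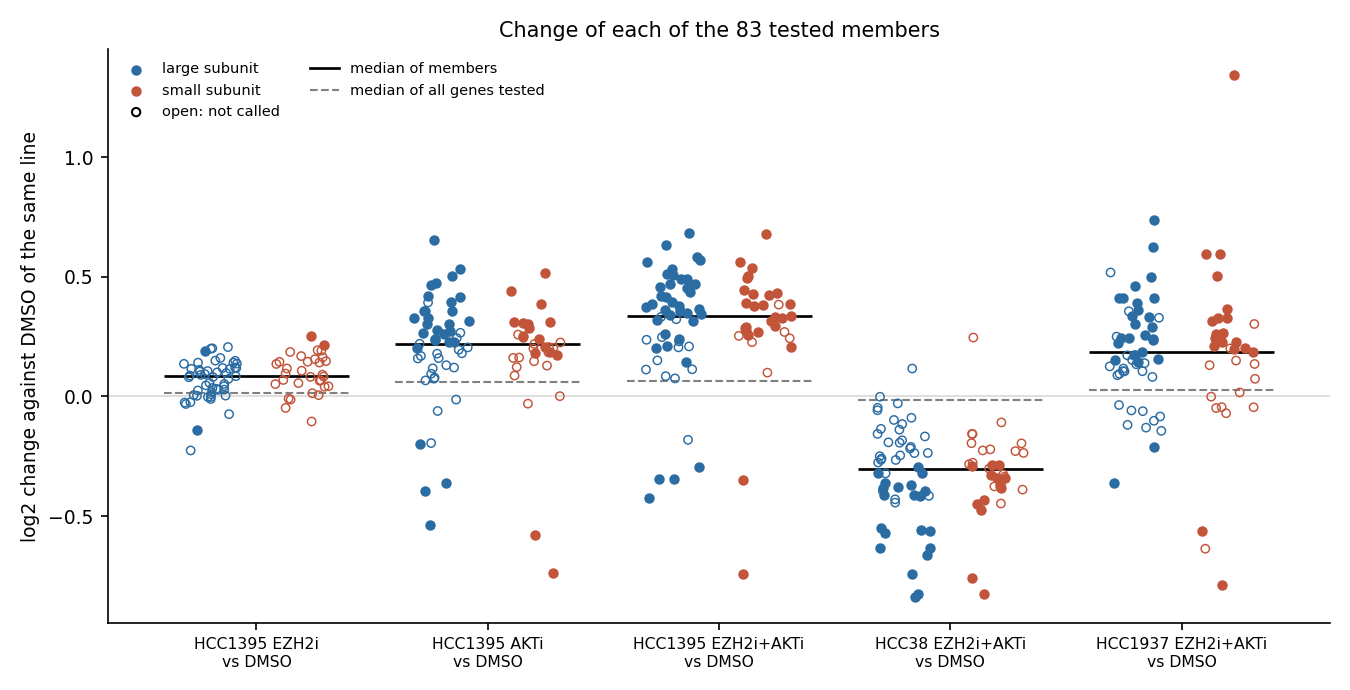
Log2 change against DMSO of the same line (y axis) of the 83 tested members in 5 comparisons (x axis); blue points are large and red points small subunit genes, filled where called by edgeR, with the median of the members as a solid and that of all genes tested as a dashed line. The median rose to 0.34 with both inhibitors in HCC1395 and 0.19 in HCC1937 and was -0.30 in HCC38, and RPS27L stands alone at 1.34 in HCC1937.

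In HCC38 ribosomal protein mRNA was lower with the same pair of inhibitors. No member rose by edgeR's quasi-likelihood test (1 at an unadjusted p under 0.05, 0 called by DESeq2) while 16.8% of all genes did, and 35 fell while 14.5% of all genes did. The median was -0.30, against -0.01 over all genes, and 81 of 83 members were below 0. Of the large subunit 21 of 51 fell, and of the small subunit 14 of 32. Without EZH2i+AKTi C the median was -0.20, 31 fell and 1 rose. Without DMSO B the median was -0.22. The number that fell was 9 without DMSO A, 4 without DMSO B and 3 without EZH2i+AKTi B, and 1 member rose without EZH2i+AKTi A. The epithelial markers summed to 3339 to 3593 CPM in DMSO and 2680.0 to 3320.0 CPM with both, and the immune markers to 7.78 to 9.41 and 2.57 to 4.26 CPM. Their part in the changes was not tested.

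The fall in HCC38 was largest in RPL36, RPL17, RPS2, RPS26, RPL8 and RPL30. RPS2, which lies at the mRNA entry channel, went from 3309, 3667 and 3214 CPM to 2516, 1980.0 and 1261 CPM, a change of -0.82 ± 0.20 (SE, adjusted p = 0.0106), and -0.56 without EZH2i+AKTi C. RPL36, a small protein of the large subunit, went from 421, 513 and 389.7 CPM to 342, 263 and 136 CPM (-0.84 ± 0.26, adjusted p = 0.0328). The groups did not overlap for either, and the treated libraries differed among themselves more than those in DMSO. Without EZH2i+AKTi C the change of RPL36 was -0.51, that of RPL8, near the peptidyl transferase centre, -0.48 in place of -0.74, and that of RPL30 -0.38 in place of -0.66. The calls of RPS2, RPL8, RPL36 and RPL30 were lost without DMSO B and without EZH2i+AKTi B, those of RPL36 and RPL30 also without DMSO A, and that of RPL30 without DMSO C. RPL36 was also not called with library totals only, with either other filter or with DESeq2, and RPL30 not with library totals only or the stricter filter. RPS26 was 531, 604 and 504 CPM in DMSO and 318, 317 and 332 CPM with both (-0.76 ± 0.09, adjusted p = 0.000264), with little spread between the treated libraries. All 3 stalk genes fell, RPLP0 by 0.32, RPLP1 by 0.36 and RPLP2 by 0.55, calls that were lost with library totals only and without DMSO A, DMSO B or EZH2i+AKTi B, and that of RPLP2 (-0.35) without EZH2i+AKTi C, and RPL5 was at -0.19 ± 0.09 (adjusted p = 0.137) and RPL11 at -0.43 ± 0.16 (adjusted p = 0.0623). RPL5 was called (-0.21) without EZH2i+AKTi C. RPL11 was called (-0.56) without EZH2i+AKTi A and was not called (-0.22) without C. RPL13A (-0.06 ± 0.13) and RPL22 (-0.05 ± 0.09) were not called.

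In HCC1937 the members mostly rose with both inhibitors. Of 83, 42 rose and 4 fell, against 30.5% and 28.8% of all genes tested, and the median was 0.19 (0.03 over all genes). Without EZH2i+AKTi C 29 rose and the median was 0.11. Of the large subunit 25 of 51 rose and of the small subunit 17 of 32, and 2 of each fell. RPS27L, a paralog of RPS27 that p53 can induce, rose the most, from 29.9, 27.7 and 30.0 CPM to 70.4, 72.7 and 78.7 CPM, a change of 1.34 ± 0.07 (SE, adjusted p = 3.6e-10). RPL13A followed, from 648, 566 and 557 CPM to 878, 986 and 1086 CPM (0.74 ± 0.08, adjusted p = 3.18e-06). For both the groups lay wholly apart. RPS27L overlaps LACTB, which drew 740 to 2359 counts per library against 725 to 3562 for RPS27L, and without a stated strand setting their reads cannot be told apart. RPS9 (0.60 ± 0.13), RPS23, at the decoding site (0.59 ± 0.12), and RPL29 (0.50 ± 0.06) also rose. Of the stalk genes RPLP1 rose (0.15 ± 0.06, adjusted p = 0.0378), a call lost with RLE scaling, DESeq2, no filter or the replicate block and without any 1 library but EZH2i+AKTi A (0.10 without C). RPL5 (0.11 ± 0.06, adjusted p = 0.126) and RPL11 (0.13 ± 0.10, adjusted p = 0.249) were not called, though RPL11 was (0.21) without EZH2i+AKTi A.

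Among the 4 members that fell in HCC1937 were RPS26, RPL26L1 and RPL27. RPS26 went from 202, 225 and 228 CPM to 123, 125 and 131 CPM, a change of -0.79 ± 0.06 (SE, adjusted p = 3.75e-08). RPL27, a large subunit protein, went from 569.9, 571 and 579 CPM to 477, 489 and 519 CPM (-0.21 ± 0.05, adjusted p = 0.00351). The treated libraries were below those in DMSO for both. Without DMSO A, the library with the highest share in its group, RPS26 changed by -0.85 and RPL13A by 0.80. Of 3 endothelial markers the sum was 35.5 to 38.6 CPM in DMSO and 66.3 to 67.7 CPM with both, and the mitochondrial genome held 4.81 to 6.37% and 6.72 to 8.54% of counts. Their part in the changes was not tested.

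Whether the response to both inhibitors differed between lines was tested in one fit of all 24 libraries. It was lower in HCC38 than in HCC1395 for 68 members and higher for 2, RPL39L and RPL7L1, where 15.6% and 17.4% of all genes were called in these directions, with a median difference of -0.63 (-0.02 over all genes). It was lower in HCC38 than in HCC1937 for 58 members, against 14.3% of all genes, and higher for 0 by edgeR's quasi-likelihood test (0 at an unadjusted p under 0.05 and 0 by DESeq2), against 17.7%. The median difference was -0.46 (-0.01 over all genes), and 33 were lower without HCC38 DMSO B. Between HCC1937 and HCC1395, 10 members were lower and 2, RPS27L and RPL7L1, higher in HCC1937, against 12% and 11.3% of all genes, with a median of -0.15. That median was -0.01 without HCC1395 EZH2i+AKTi B, when 3 members were lower, and -0.24 without HCC1395 EZH2i+AKTi C. The number lower was 4 without HCC1395 DMSO B, 17 without HCC1395 EZH2i+AKTi C and 5 without HCC1937 EZH2i+AKTi B. The 2 comparisons with HCC38, and those with HCC1395, share libraries.

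The largest differences of HCC38 from HCC1395 were in RPS2 (-1.06 ± 0.25, adjusted p = 0.00282), RPS9 (-1.05 ± 0.20), RPL36 (-1.02 ± 0.35), RPL30 (-0.96 ± 0.29), RPL8 (-0.93 ± 0.25) and RPLP2 (-0.92 ± 0.27). The call of RPL36 was lost without any 1 of HCC1395 DMSO A, B or C, HCC1395 EZH2i+AKTi B, HCC38 DMSO B or HCC38 EZH2i+AKTi C, and that of RPL30 without HCC1395 EZH2i+AKTi B. The higher response of RPL39L (0.44 ± 0.16) was not called without any 1 of HCC1395 DMSO B or C, EZH2i C or EZH2i+AKTi A or C, or of HCC38 DMSO A or C or EZH2i+AKTi A or C. RPS9 rose in HCC1395 and HCC1937 and was 862, 1001 and 841 CPM in HCC38 DMSO and 864, 671 and 528 CPM with both inhibitors, groups that overlapped (-0.39 ± 0.16, adjusted p = 0.0849), with a call (-0.57) without EZH2i+AKTi A. RPS27L differed between HCC1937 and HCC1395 by 0.96 ± 0.15 (SE, adjusted p = 1.98e-05) and between HCC38 and HCC1937 by -1.07 ± 0.15. Between HCC38 and HCC1395 its response differed by -0.11 ± 0.15 (adjusted p = 0.643).

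Line by line, no member rose in all 3 lines, against 7.8% of the 14980 genes tested in each of them, and 3 fell in all 3, against 7.34%. The number that rose in both HCC1395 and HCC1937 was 38 of 83, against 18.8% of all genes, and 8 of these fell in HCC38, against 0.681%. In all, 19 members rose in HCC1395 and fell in HCC38, against 2.24%. The counts that use a fall in HCC38 rest on few libraries, since 4 members fell there without DMSO B and 3 without EZH2i+AKTi B.

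**Figure D3:**
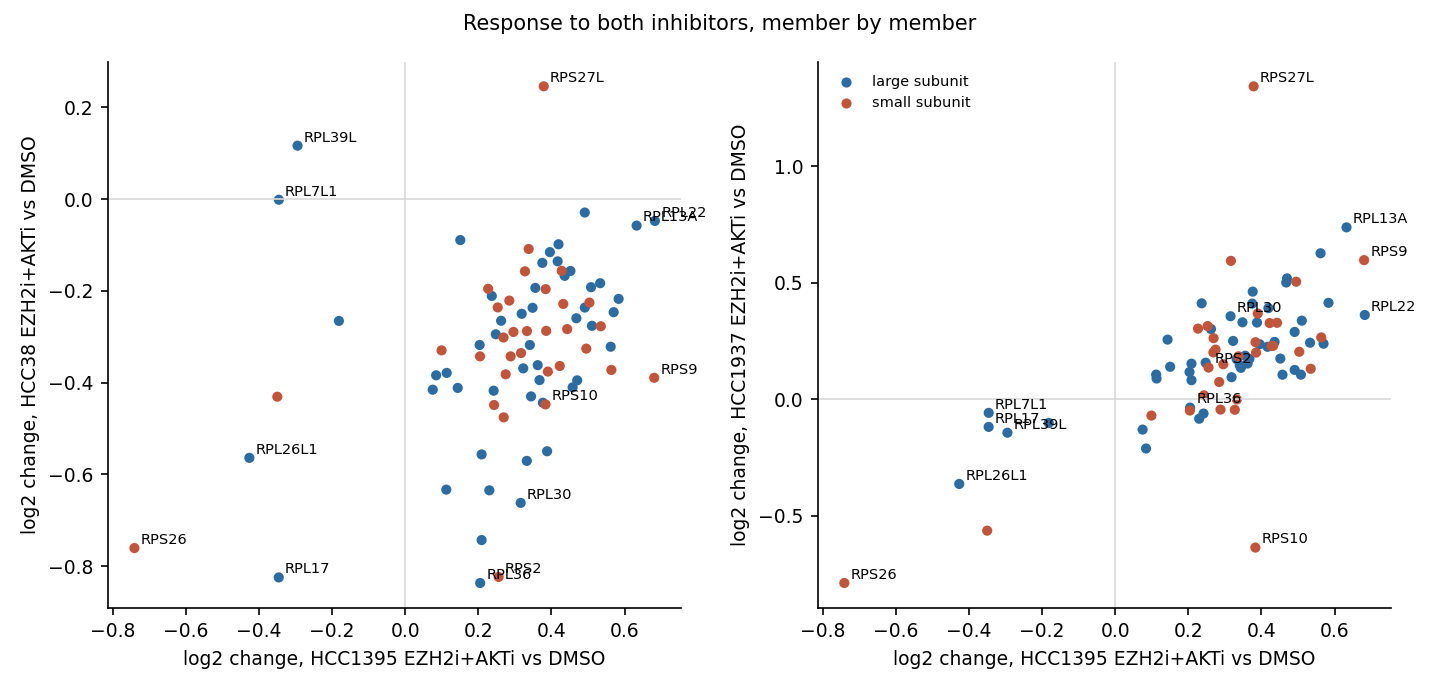
Log2 change with both inhibitors in HCC38 (left) and HCC1937 (right) on the y axis against that in HCC1395 on the x axis, 1 point per tested member, blue for the large and red for the small subunit. Most members lie right of 0 and below 0 on the left and in the upper right on the right, while RPS26 and RPL26L1 lie below 0 on both axes in both panels.

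RPS26 and RPL26L1 were among the members that fell in all 3 lines. The change of RPS26 was -0.74 ± 0.10 in HCC1395, -0.76 ± 0.09 in HCC38 and -0.79 ± 0.06 in HCC1937, and the differences of its response between lines were 0.00 ± 0.12 (HCC38 minus HCC1395, adjusted p = 1), -0.05 ± 0.12 (HCC1937 minus HCC1395, adjusted p = 0.836) and 0.06 ± 0.12 (HCC38 minus HCC1937, adjusted p = 0.79). It changed by -0.92 in HCC1395 without EZH2i+AKTi B. RPS26 drew 3422 to 19500 counts per library. An annotated gene that overlaps it, AC034102.3, had 0 to 5 counts, and its 30 pseudogene symbols together had 0.349 to 0.789% of its own counts. Its assembly chaperone TSR2, looked up after these values were seen, changed by -0.27 ± 0.09 in HCC1395 (adjusted p = 0.0176), -0.72 ± 0.19 in HCC38 (adjusted p = 0.0142) and 0.0029 ± 0.16 in HCC1937 (adjusted p = 0.989).

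RPL26L1, a paralog that differs from RPL26 by few residues, was 55.4, 49.4 and 51.0 CPM in HCC1395 DMSO and 36.5, 46.5 and 32.6 CPM with both inhibitors. It went from 57.4, 61.9 and 53.7 CPM to 37.6, 40.9 and 38.5 CPM in HCC38 (-0.56 ± 0.10, adjusted p = 0.00189) and from 62.0, 63.8 and 63.5 CPM to 45.7, 51.4 and 50 CPM in HCC1937 (-0.36 ± 0.06, adjusted p = 0.000158). In each line the treated libraries were below those in DMSO. RPL26 itself was at 0.08 ± 0.13, -0.42 ± 0.20 and -0.13 ± 0.09 in HCC1395, HCC38 and HCC1937. It was called in none, but in HCC1937 was called (-0.23) without DMSO C. Its 14 pseudogene symbols had 16.8 to 42.4% of its own counts, which makes the values of RPL26 uncertain. Per kilobase of transcript RPL26 stood at 66.5 CPM in HCC1395 DMSO, against 77.7 CPM for RPL26L1 and 893 CPM for the median member. RPL26 also overlaps 2 annotated genes, AC135178.2 and AC135178.3, whose counts are not given here. Its level therefore cannot be read as low expression or as equal to that of RPL26L1.

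**Figure D4:**
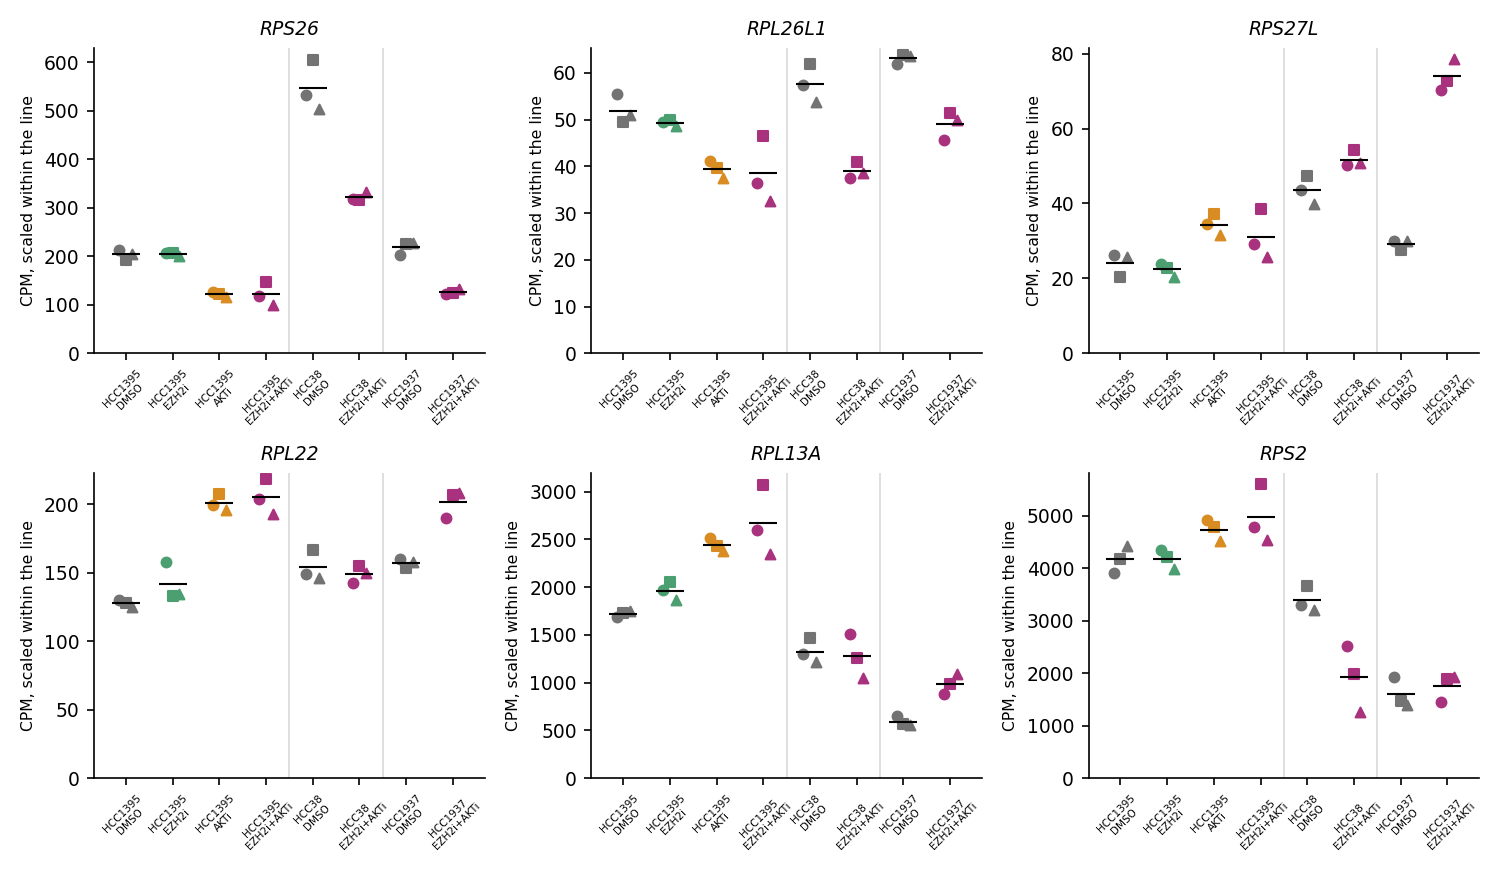
Level of 6 members in every library (CPM on the y axis, linear, from 0, scaled by TMM within each line and so not comparable across the vertical lines that part the lines), by group (x axis); circles, squares and triangles are replicates A, B and C and horizontal lines the mean of 3. RPS26 and RPL26L1 are lower with both inhibitors in each line, RPS27L stands at 70.4 to 78.7 CPM in treated HCC1937, and RPS2 runs from 2516 down to 1261 CPM among the treated libraries of HCC38.

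Of the 6 tested paralogs, 1 rose and 3 fell with AKTi in HCC1395, 2 rose and 3 fell with both inhibitors there, 1 fell in HCC38, and 2 rose and 1 fell in HCC1937. Of the other 77 members 38 and 3, 56 and 3, 0 and 34, and 40 and 3 rose and fell in the same comparisons. Of all genes tested, 27.1% and 22.6%, 32.5% and 27.4%, 16.8% and 14.5%, and 30.5% and 28.8% rose and fell in these comparisons. Counts of 1 to 3 among 6 paralogs are too few to be set against these shares. RPL22L1, the paralog of RPL22, was 19.9, 16.9 and 16.4 CPM in HCC1395 DMSO and 15.4, 18.2 and 13.0 CPM with both inhibitors (-0.18 ± 0.10, adjusted p = 0.141), and was called in none of the 3 lines with all libraries. It was called lower in each with 1 certain library left out, at -0.34 in HCC1395 without EZH2i+AKTi B, -0.33 in HCC38 without EZH2i+AKTi C (with all libraries -0.27) and -0.23 in HCC1937 without DMSO A (with all libraries -0.10). Treated and DMSO libraries overlapped in each line. In HCC1937 RPL22L1 was 17.4, 21.9 and 24.5 CPM in DMSO and 19.6, 19.5 and 20.3 CPM with both. RPL22 rose in HCC1395 and in HCC1937 (0.36 ± 0.06). RPL39 was at 0.32 ± 0.16 (adjusted p = 0.114) where RPL39L fell, and at 0.08 without EZH2i+AKTi B and 0.48, and called, without EZH2i+AKTi C. RPL7 rose by 0.45 ± 0.07 where RPL7L1 fell by 0.35. RPL3L, a muscle paralog of RPL3, was 1.48, 1.57 and 1.54 CPM in HCC1395 DMSO and 2.31, 2.23 and 2.22 CPM with both (0.56 ± 0.16, adjusted p = 0.00494). RPL3 stood so far above it that a few reads shared with RPL3 could not be told apart from its own. RPS27L rose in HCC1395 by 0.52 ± 0.14 with AKTi and by 0.38 ± 0.14 with both, was at 0.25 ± 0.10 (adjusted p = 0.0871) in HCC38, where it was called without EZH2i+AKTi C (0.30) or A (0.28), and lost its call with both inhibitors in HCC1395 without EZH2i+AKTi B (0.17), DMSO B or EZH2i A, with RLE scaling and with only the groups compared. RPS27 was at 0.25 ± 0.19 in HCC1395 (adjusted p = 0.296) and rose by 0.31 ± 0.10 in HCC1937, a call lost without any 1 DMSO library and without EZH2i+AKTi B or C (0.16 without C).

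Some members had counts that the annotation makes uncertain. In GENCODE release 29, 43 of the 84 overlap another gene. RPS10 had 14 to 63 counts per library, and its 11 pseudogene symbols had 206 to 1341% of that. RPL36A had 40 to 169 counts and RPL17 122 to 986, and each of the 3 overlaps an annotated gene of the same strand (RPS10-NUDT3, RPL36A-HNRNPH2 and RPL17-C18orf32). Levels this low for genes that every ribosome needs cannot be read as low expression, since the counting rule for shared reads is not given in the sources used here. In all, the pseudogene symbols had 3.10 to 4.09 counts per 100 counts on members. For some members they had far more of the member's own counts. Among these were RPL26 (16.8 to 42.4%), RPL39 (25.7 to 34.9%), RPL7 (18.8 to 20.9%) and RPS2 (10.55 to 31.7%). Of the 109 pseudogene symbols that were tested in HCC1395, 34 rose and 3 fell with both inhibitors, with a median of 0.34. Of all genes 32.5% and 27.4% rose and fell.

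Other genes with a 5′ TOP tract were mostly called higher in HCC1395 with AKTi or both inhibitors. The shares of all genes called higher and lower with both, for comparison, were 32.5% and 27.4% in HCC1395, 16.8% and 14.5% in HCC38 and 30.5% and 28.8% in HCC1937. The 4 listed ribosomal protein genes outside the name rule had a median of 0.36 with both inhibitors in HCC1395 (3 rose), -0.41 in HCC38 (3 fell) and 0.10 in HCC1937. RACK1, a scaffold on the small subunit, changed by 0.53 ± 0.07 in HCC1395 and -0.35 ± 0.09 in HCC38. FAU, whose product holds RPS30, changed by -0.83 ± 0.19 in HCC38. Of 16 tested translation factors and other genes with the tract, 14 rose and 1 fell in HCC1395 with AKTi and also with both inhibitors (medians 0.48 and 0.44). The shares of all genes called higher and lower with AKTi were 27.1% and 22.6%. With EZH2i alone 2 rose and 2 fell, against 18.8% and 14.9% of all genes. In HCC38 1 rose and 4 fell, and in HCC1937 9 rose and 3 fell. EIF4B, a cofactor of the helicase eIF4A, rose by 0.95 ± 0.05 (SE, adjusted p = 1.3e-12) with AKTi and by 0.74 ± 0.05 in HCC1937. EEF2, the translocation factor, rose by 0.77 ± 0.05 with AKTi, and EEF1B2 changed by -0.73 ± 0.09 in HCC38. Of 9 tested host genes of small nucleolar RNAs, 8 rose with both in HCC1395 (median 0.73), 6 rose and 2 fell in HCC1937 (0.60), and 1 fell in HCC38 (-0.12). EPB41L4A-AS1 rose by 2.49 ± 0.10 in HCC1395 and 1.87 ± 0.11 in HCC1937, and SNHG1 changed by -0.59 ± 0.11 in HCC38.

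The 78 genes of the mitochondrial ribosome, encoded in the nucleus and without a 5′ TOP tract as a class, are given beside them. Their share was 0.425% ± 0.0022 (SD, n = 3) in HCC1395 DMSO and 0.350% ± 0.029 with both inhibitors. In HCC38 it was 0.552% ± 0.027 and 0.427% ± 0.037, and in HCC1937 0.441% ± 0.016 and 0.376% ± 0.016. With both inhibitors 54 of these genes fell and 3 rose in HCC1395, 48 fell and 1 rose in HCC38, and 44 of 77 tested fell and 2 rose in HCC1937. Of all genes 27.4%, 14.5% and 28.8% were called lower. The median log2 changes of the mitochondrial ribosomal genes were -0.35, -0.45 and -0.24, against 0.07, -0.01 and 0.03 over all genes.

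Of 20 genes of the mTORC1, S6 kinase and 5′ TOP control list, 3 rose and 13 fell with both inhibitors in HCC1395, 2 and 5 in HCC38, and 5 and 11 in HCC1937. Of all genes 32.5% and 27.4%, 16.8% and 14.5%, and 30.5% and 28.8% rose and fell in these lines. EIF4E, the cap-binding protein, fell by 0.98 in HCC1395 and 0.69 in HCC1937. PDCD4, an inhibitor of eIF4A that S6 kinase marks for decay, rose by 0.51 ± 0.05 with AKTi in HCC1395 and by 0.83 ± 0.13 with both in HCC38. LARP1, named here as the 5′ TOP binding protein, changed by -0.34 ± 0.06, -0.31 ± 0.09 and -0.43 ± 0.06 in HCC1395, HCC38 and HCC1937. Of 9 assembly chaperones 1 rose and 7 fell in HCC1395, 6 fell in HCC38 and 6 fell in HCC1937. HEATR3, which carries RPL5 into the nucleus, changed by -1.08 ± 0.07, -0.44 ± 0.10 and -1.10 ± 0.07. Of 11 transcription factors known at these promoters 5 rose and 3 fell in HCC1395 and 3 rose and 4 fell in HCC1937, and in HCC38 edgeR called 0 (1 at an unadjusted p under 0.05, 1 called by DESeq2). MYC rose by 1.13 ± 0.07 (SE, adjusted p = 3.91e-09) in HCC1937, was at 0.05 ± 0.08 in HCC38 (adjusted p = 0.679) and rose by 0.12 ± 0.05 in HCC1395.

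In DMSO most members were called different between lines, as were most of all genes tested. These levels come from the fit of all 24 libraries. Against HCC1395, 27 members were higher and 30 lower in HCC38, where 38.2% and 36.5% of all genes were called, with a median of -0.09 (0.02 over all genes). That median was -0.19 without HCC38 DMSO B and -0.01 without HCC38 DMSO C. In HCC1937 13 were higher and 46 lower, against 37.3% and 35.7%, with a median of -0.38 (0.01 over all genes). RPS23 was 409, 463 and 393 CPM in HCC38 DMSO, 148, 155 and 154 in HCC1395 and 135, 127 and 132 in HCC1937, higher in HCC38 than in HCC1395 by 1.47 ± 0.14. RPS26 was likewise highest in HCC38, at 516, 584 and 490.3 CPM, against 218, 196 and 206 in HCC1395 (1.36 ± 0.09, adjusted p = 2.57e-14) and 199, 222 and 223 in HCC1937, which did not differ from HCC1395 beyond its error (0.05 ± 0.09). RPL8 was 3432, 3522 and 3754 CPM in HCC1395 and 1138, 1278 and 1086 in HCC38, a difference of -1.61 ± 0.18. In HCC1937 it was 5822, 4428 and 4225 CPM, and its difference from HCC1395 (0.43 ± 0.18, adjusted p = 0.0364) was 0.28 without DMSO A of HCC1937, and its call was lost without that library, any 1 DMSO library of HCC1395 or HCC1395 EZH2i C.

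RPL30 and RPL7 were higher than in HCC1395 in both other lines, RPL30 by 1.23 ± 0.21 in HCC38 and 1.10 ± 0.21 in HCC1937 and RPL7 by 1.19 ± 0.07 and 0.71 ± 0.07. RPL35A was higher by 1.45 ± 0.18 in HCC1937. RPL13A was 1721, 1755 and 1775 CPM in HCC1395 and 638, 558 and 544 CPM in HCC1937, a difference of -1.59 ± 0.11 (SE, adjusted p = 1.56e-13). RPS2 differed by -1.43 ± 0.18 in HCC1937. RPL9 differed by -2.00 ± 0.09, but its pseudogene symbols, RPL9P9 above all, held 164 to 175% of its own counts in HCC1937 DMSO against 5.29 to 5.44% in HCC1395 DMSO. RPL9 and these symbols together came to 506 CPM of the library total in HCC1937 and 760.4 CPM in HCC1395.

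**Figure D5:**
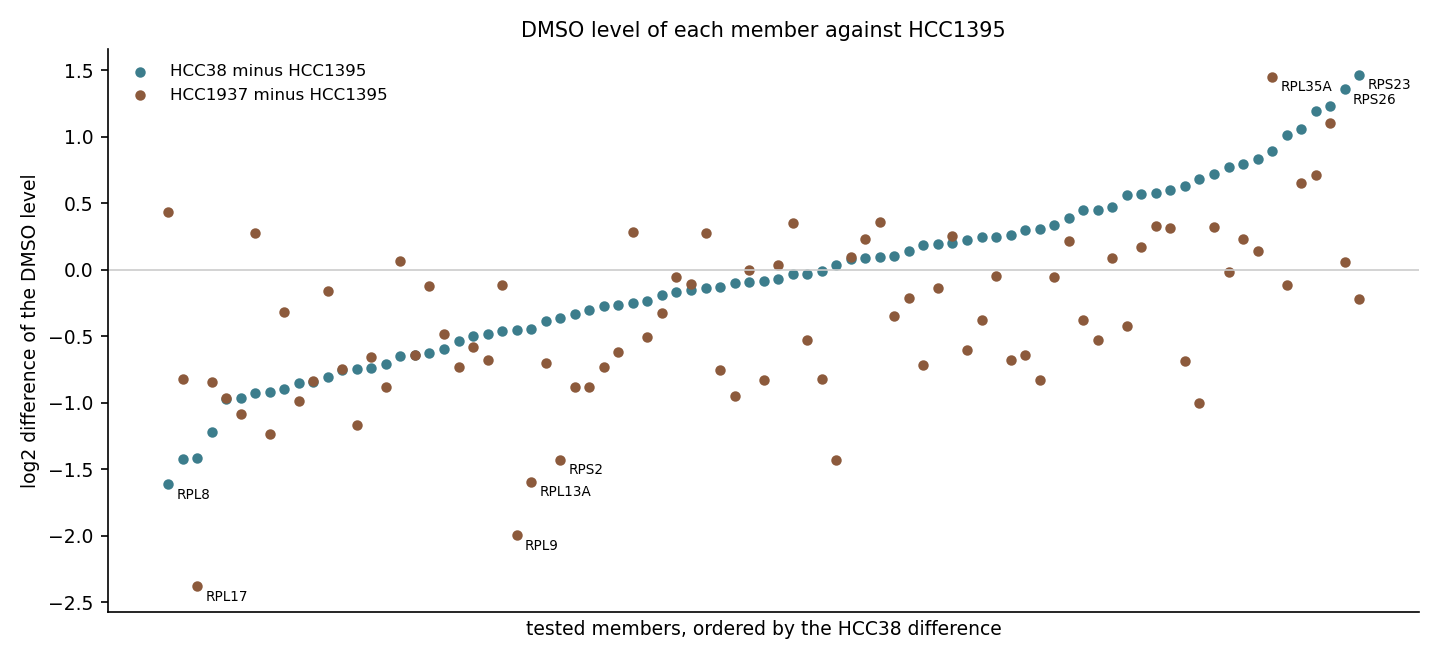
Log2 difference of the DMSO level from HCC1395 (y axis) for the 83 tested members in HCC38 (teal) and HCC1937 (brown), ordered on the x axis by the HCC38 difference, with 8 points named. The differences run from -1.61 (RPL8) to 1.47 (RPS23) in HCC38 and from -2.38 (RPL17) to 1.45 (RPL35A) in HCC1937, and the order of one line is not that of the other.

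Set per kilobase of annotated transcript, the median member stood at 893 CPM per kb in HCC1395 DMSO, 846 in HCC38 and 672 in HCC1937. Levels per kilobase were scaled in the fit of all 24 libraries. In HCC1395 the highest were RPS2 at 4299 ± 248 CPM per kb (SD, n = 3), RPL8 at 3699 ± 172, RPL13 at 3366 ± 169, RPL7A at 2519.7 ± 96.6 and RPSA at 2006 ± 94.2. RPLP1 (1895 ± 47.3) and RPLP0 (1883 ± 92.6) followed and were not apart beyond their SD. In HCC38 RPS2 (3346 ± 221) led before RPL13 (2409 ± 225), and in HCC1937 RPL8 (4999.9 ± 901) before RPL35 (2216 ± 397). The lowest in HCC1395 were RPL3L at 0.712, RPS10 at 1.02, RPS27L at 3.79, RPL36A at 5.64 and RPL22L1 at 8.22 CPM per kb. The order depends on the length used, since the annotated transcript of RPS27L is 6434 bases with a coding part of 252, and of the 10 highest in HCC1395 6 stay among the highest 10 by the union of exons and 5 by coding length, a scale added after seeing the data.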

How the data were processed

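Gene-level counts of 24 poly-A RNA-seq libraries were used as deposited by the authors, in whole numbers and not normalized. The submitters' processing notes name fastp, HISAT2 2.0.5, DESeq2 and the build hg38. Which program counted the reads, on which annotation and with which strand setting, is not given in the sources used here, so reads of overlapping or near-identical genes may be split. The deposited tables of the whole series (3) were not used. The members and gene lists were chosen with earlier results of these data known.

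Tests used edgeR 4.0.16 with limma 3.58.1 in R 4.3.3: genes passing filterByExpr (minimum count 10), TMM scaling, robust two-sided quasi-likelihood tests, and Benjamini-Hochberg adjustment over all genes tested at 0.05. Each line had its own fit (18074, 17100 and 17692 genes in HCC1395, HCC38 and HCC1937, with 8, 4 and 4 residual degrees of freedom). Differences between lines came from 1 fit of all libraries (20697 genes, 16 degrees of freedom). Shares and levels per kilobase are descriptions. The workflow was tested on simulated counts modelled on the DMSO and EZH2i+AKTi libraries of each line. The HCC1395 fit that includes the single inhibitors and the fit of all libraries were not simulated.

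Named members are the 6 largest and 6 smallest called changes per comparison with at least 2 CPM, a panel of 27 genes, the 5 highest and lowest levels per length, and for the pathway lists the 3 smallest p per comparison. TSR2, LARP1, MYC and the pseudogenes are exceptions named after their values were seen. Replicate libraries differed by more than sampling noise (chi-square per degree of freedom 2.71 to 101). Alternatives were RLE scaling, library totals, 2 other filters, DESeq2 1.42.0, a replicate block, only the groups compared and each library left out. GENCODE release 29 gave positions and lengths, and RefSeq (GRCh38.p14) start sequences. Some members and markers are not reported here by name.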

Additional observations from a re-analysis of the deposited data

Results flagged for a closer look

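The results below are those in which the response to both inhibitors differed between lines in the test of the difference itself (edgeR's quasi-likelihood test, adjusted over all genes tested). No group had more than 3 libraries, so no single library was screened as an outlier.

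Between HCC38 and HCC1395, 68 members had a lower and 2 a higher response in HCC38, against 15.6% and 17.4% of all genes. The log2 differences of the named members were -1.06 for RPS2, -1.05 for RPS9, -1.02 for RPL36, -0.96 for RPL30, -0.93 for RPL8 and -0.92 for RPLP2. They were 0.44 for RPL39L and 0.37 for RPL7L1.

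Between HCC1937 and HCC1395, 10 of 83 members had a lower and 2 a higher response in HCC1937, against 12% and 11.3% of all genes. The differences were -0.41 for RPS15A, -0.41 for RPL5, -0.38 for RPS7, -0.37 for RPL14, -0.36 for RPL18 and -0.34 for RPSA. Higher were RPS27L (0.96) and RPL7L1 (0.28). Without HCC1395 EZH2i+AKTi B the calls of RPS7, RPL14, RPL18 and RPSA were lost.

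Between HCC38 and HCC1937, 58 members had a lower response in HCC38, against 14.3% of all genes. The differences were -1.07 for RPS27L, -0.99 for RPL30, -0.96 for RPS9, -0.93 for RPS2, -0.90 for RPS23 and -0.88 for RPL27A.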

How the results depend on the processing

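No called change of a named or panel member turned its direction under any alternative run. The median of the interaction, 0.02, was -0.03 without EZH2i+AKTi B. The members called with EZH2i were 0 higher and 2 lower with RLE scaling, 14 and 0 with library totals only, 5 higher with the stricter filter, 2 lower with no filter, 1 and 2 with DESeq2, and 25 and 2 with only the groups compared, against 3 and 1. In HCC38 12 fell and 1 rose with library totals only and 21 fell and 1 rose with the stricter filter, against 35 and 0. With no filter 1 member was higher in HCC1937 than in HCC1395, against 2. Of the 10 highest levels per length 6 (union of exons) and 5 (coding length) stayed. Leaving out 1 library gave 0 to 11 higher and 0 to 2 lower with EZH2i, 23 to 50 higher with AKTi, and 0 to 1 higher for the interaction. It gave 0 to 1 higher and 3 to 49 lower in HCC38, 1 to 2 higher for HCC38 less HCC1395, 3 to 17 lower for HCC1937 less HCC1395, and 33 to 64 lower for HCC38 less HCC1937. Over the named and panel members only, 302 of the 4671 alternative values of called changes lost the call, and 112 of 3014 of uncalled ones gained it.

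The replicate letters did not pair the libraries (same-letter correlations of deviations -0.062 to 0.074 in HCC1395, -0.084 to 0.109 in HCC38 and -0.208 to -0.076 in HCC1937). With a replicate block 4 rose and 1 fell with EZH2i, 46 and 6 with AKTi, 61 and 6 with both, 0 and 41 in HCC38 and 32 and 4 in HCC1937, and no count moved by over 1.5 times. No paired analysis was possible for the DMSO levels because the blocks lie within a line. With 3 libraries per group and 4 residual degrees of freedom in HCC38 and HCC1937, members at few counts, such as RPS10, had standard errors of 0.30 and 0.37, so changes of that size could not be told from the spread.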
